A study of Mus musculus and Homo sapiens with 8 samples.

Results

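Aldo-keto reductases and enzymes that keep cytosolic NADPH in supply were followed in HepG2 cells, an established human liver carcinoma line, after 24 h with arsenite or with water. The set was given as 10 genes by Ensembl identifier, out of the 60675 identifiers of the count table. Its members were chosen with earlier results of these data known. It held 6 aldo-keto reductases (AKR1A1, AKR1B1, AKR1B10, AKR1C1, AKR1C2 and AKR1C3), ME1 and PGD, which make NADPH, and TALDO1 and TKT of the non-oxidative pentose phosphate branch. RNA-seq of the series covered 8 samples of 2 cell lines, HepG2 and mouse NIH3T3 fibroblasts, with 2 samples in each group. The arsenite and the water HepG2 samples were both at 25 population doublings, and the labels print 5 nM for arsenite and repeat it for water. Arsenite, a trivalent form of arsenic, binds to thiol groups of proteins. Nothing in the labels ties the samples of a group to separate cultures, and the spread on which the p-values rest may therefore be technical. The NIH3T3 libraries were not used, since human identifiers do not belong to their values.

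Aldo-keto reductases use NADPH to reduce aldehydes and ketones to alcohols, which detoxifies lipid aldehydes and shapes steroid and retinoid levels in liver. NADPH is regenerated in the cytosol by the oxidative pentose phosphate pathway, where PGD acts, and by malic enzyme (ME1). Transketolase (TKT) and transaldolase (TALDO1) make no NADPH themselves but move carbon between the pentose phosphates and glycolysis. The AKR1C genes, AKR1B10, ME1, PGD, TALDO1 and TKT are known targets of NRF2, the transcription factor released when thiols of its inhibitor KEAP1 are modified.

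HepG2 libraries held 27192636 and 27361110 counts with arsenite and 26965049 and 27481613 counts with water. Levels are given as CPM, counts scaled to the library total. Replicates differed by more than sampling noise in both groups, with a chi-square over its degrees of freedom of 29.0 between the arsenite libraries and 20.4 between the water libraries. Identity of the cells was not checked against liver or fibroblast markers here, because the tables used pair no human identifier with a symbol. Arsenite was compared with water in edgeR's quasi-likelihood test over all 14389 genes that passed the filter on low counts, and a gene was called at a Benjamini-Hochberg adjusted p under 0.05.

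Of the 10 genes, 9 were tested and 3 were called, all 3 higher with arsenite (AKR1A1, PGD and TKT), and their fitted changes lay between 1.34-fold and 1.48-fold. Of all genes tested, 30.6% were called, 11.8% higher and 18.8% lower, so that the 33.3% called here was near the background. That split of all genes moved with the scaling, to 7.87% higher and 23.1% lower with library size alone and to 17.4% higher and 17.8% lower with each library's length trend removed. The other 6 did not pass the test, and ME1 was not tested, with at most 1 count a library. All tested members except AKR1C3, 8 in number and the 3 called ones among them, belonged to the most abundant 20% of genes, of which 39.3% were called, 27.1% higher and 12.2% lower. The median log2 fold change was 0.20 over the 9 genes and -0.02 over all genes tested. No member was called lower by edgeR, DESeq2 or limma-voom, and 0 members were lower at an unadjusted p under 0.05 in edgeR. Without arsenite 1, or without water 1, 0 of the 9 were called, in fits that called 5.63% and 9.25% of all genes tested. Without water 2 the count was 2, where 30.3% of all genes were called.

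**Figure D1:**
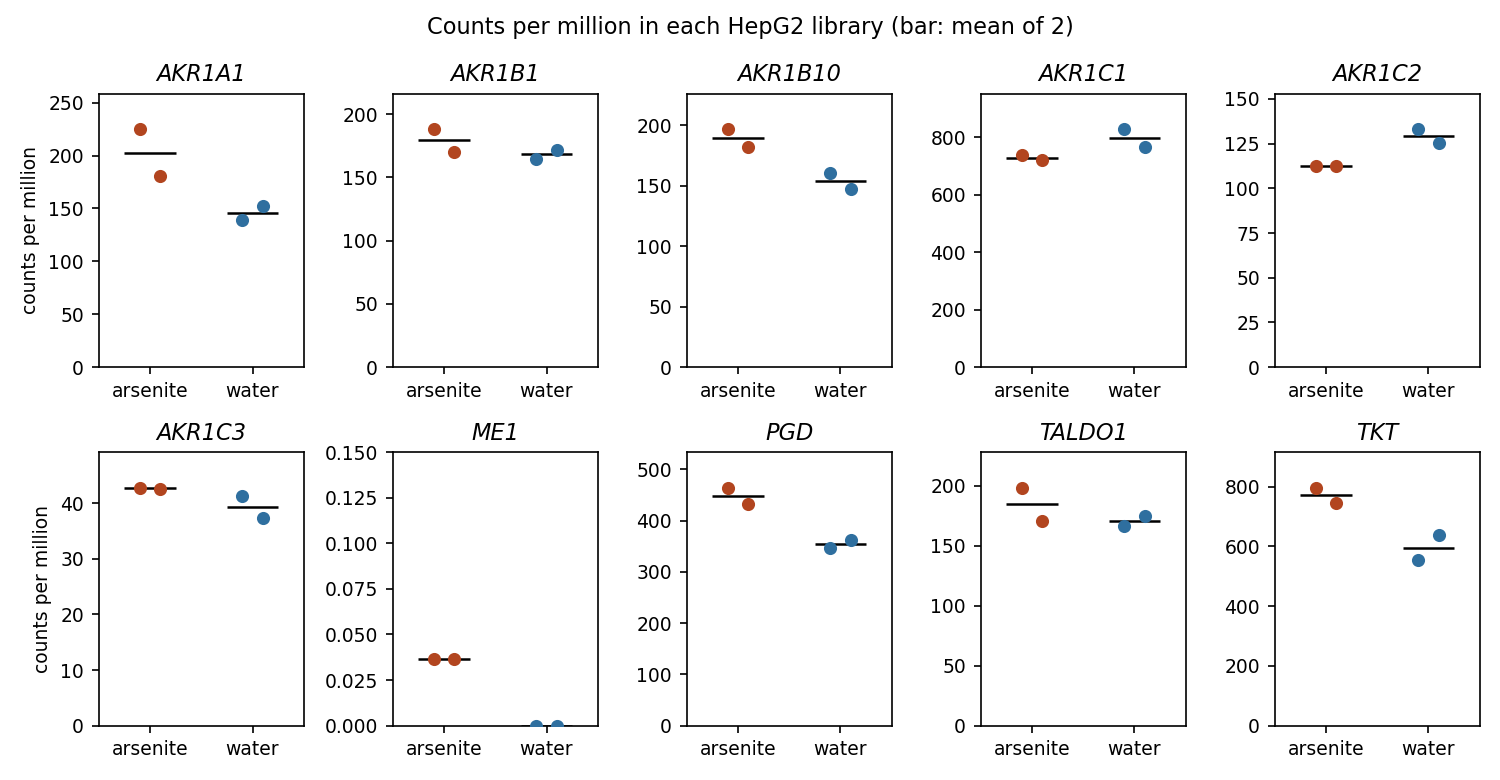
CPM (vertical axes, each from 0) of the 10 genes in each HepG2 library, arsenite at the left and water at the right, with points for libraries and bars for the mean of 2. AKR1A1, AKR1B10, AKR1C3, PGD and TKT have both arsenite points above both water points, AKR1C1 and AKR1C2 have both below, AKR1B1 and TALDO1 overlap, and ME1 stays under 0.15 CPM.

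AKR1A1 (ENSG00000117448) encodes aldehyde reductase, which acts on many aldehydes and on sugar acids. It had 225 and 180 CPM with arsenite, from 6117 and 4935 counts, against 139 and 152 CPM with water, from 3752 and 4185 counts. Both arsenite libraries lay above both water libraries, and arsenite 1 stood 1.25-fold above arsenite 2, the widest replicate gap among the 9 genes. AKR1A1 rose 1.48-fold, a log2 fold change of 0.56 (SE 0.16, adjusted p = 0.00411, edgeR, Benjamini-Hochberg). Without arsenite 1 the log2 fold change was 0.40 and without water 1 it was 0.51, and neither was called. Among the alternatives with all 4 libraries, the adjusted p was lowest with each library's length trend removed, at 0.00181 (edgeR, Benjamini-Hochberg). That setting was chosen after seeing the data. The adjusted p was highest in a test against a fold of 1.2, at 0.0510 (edgeR, Benjamini-Hochberg), where the call was lost.

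AKR1B10 (ENSG00000198074) reduces retinal and lipid-derived aldehydes and is best known from liver and lung tumours. It had 197 and 182 CPM with arsenite against 160 and 147 CPM with water. The groups did not overlap, and single arsenite libraries exceeded single water libraries by 1.13-fold to 1.34-fold. The fitted log2 fold change of 0.38 (SE 0.16) missed the threshold with an adjusted p of 0.0604 (edgeR, Benjamini-Hochberg). Its call depended on the tool and scaling: the adjusted p was 0.0333 in DESeq2, 0.0495 in limma-voom and 0.151 with edgeR scaled to library size alone, within a range of 0.0333 to 0.400 over the 15 alternatives.

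AKR1B1 (ENSG00000085662) encodes aldose reductase, which turns glucose into sorbitol in the polyol pathway. It had 188 and 170 CPM with arsenite against 165 and 171 CPM with water, and the groups overlapped. The log2 fold change was 0.18 (SE 0.16, adjusted p = 0.433, edgeR, Benjamini-Hochberg), with a 95% interval of -0.14 to 0.50. Within libraries, AKR1B10 gave 1.05 and 1.07 counts per AKR1B1 count with arsenite and 0.973 and 0.857 with water, without overlap.

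AKR1C1 (ENSG00000187134), AKR1C2 (ENSG00000151632) and AKR1C3 (ENSG00000196139) are neighbouring copies with similar sequence that act on steroids. AKR1C1 inactivates progesterone, AKR1C2 inactivates dihydrotestosterone, and AKR1C3 makes testosterone and prostaglandin F. How the authors' counting shared reads between such copies is not stated in the labels or headers, so the division of counts among the 3 is uncertain, and the same holds for AKR1B10 and its close copy AKR1B15. AKR1C1 was the most abundant aldo-keto reductase by counts, with 737 and 719 CPM with arsenite against 827 and 767 CPM with water. In CPM both arsenite libraries lay below both water libraries. That order did not hold with the TMM scaling factors of the edgeR fit, 0.964 for arsenite 1 and 1.04 for water 2. The log2 fold change of -0.05 (SE 0.15, 95% interval -0.35 to 0.25) did not pass the test (adjusted p = 0.840, edgeR, Benjamini-Hochberg). Its sign turned without arsenite 2 (0.04), without water 1 (0.02) and with each library's trend over gene length removed (0.12).

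AKR1C2 had 113 and 112 CPM with arsenite against 133 and 125 CPM with water. The arsenite values were again both below the water values, at a log2 fold change of -0.12 (SE 0.17, 95% interval -0.44 to 0.21, adjusted p = 0.638, edgeR, Benjamini-Hochberg). AKR1C3 had 42.8 and 42.6 CPM with arsenite against 41.2 and 37.4 CPM with water. It lay in the other direction from its neighbours, at a log2 fold change of 0.20 (SE 0.18, 95% interval -0.16 to 0.56, adjusted p = 0.420, edgeR, Benjamini-Hochberg). None of the 3 intervals reached a 1.5-fold change in either direction.

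PGD (ENSG00000142657) encodes phosphogluconate dehydrogenase, which yields NADPH as it forms ribulose phosphate. It had 464 and 432 CPM with arsenite, from 12627 and 11829 counts, against 346 and 362 CPM with water, from 9338 and 9938 counts. Every arsenite library exceeded every water library, by up to 1.34-fold. PGD rose 1.34-fold, a log2 fold change of 0.42 (SE 0.16, adjusted p = 0.0266, edgeR, Benjamini-Hochberg). The call was lost with library size alone (log2 fold change 0.34, adjusted p = 0.0778) and without arsenite 1, water 1 or water 2 (adjusted p = 0.259, 0.210 and 0.0888, edgeR, Benjamini-Hochberg), in a range of 0.0122 to 0.259 over the 15 alternatives.

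TKT (ENSG00000163931) encodes transketolase, which passes carbon units between sugar phosphates. It had 797 and 746 CPM with arsenite against 553 and 640 CPM with water, and the groups did not overlap. TKT rose 1.37-fold, a log2 fold change of 0.46 (SE 0.15, adjusted p = 0.0140, edgeR, Benjamini-Hochberg). Without arsenite 1 its log2 fold change was 0.42 and without water 1 it was 0.37, and neither was called. Among the alternatives with all 4 libraries, the adjusted p was lowest with each library's length trend removed, at 0.000103 (edgeR, Benjamini-Hochberg). That setting was chosen after seeing the data. The adjusted p was highest in a test against a fold of 1.2, at 0.124 (edgeR, Benjamini-Hochberg), where the call was lost.

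TALDO1 (ENSG00000177156) encodes transaldolase, the partner of transketolase in the same branch. It had 199 and 171 CPM with arsenite against 167 and 175 CPM with water, and the groups overlapped. The log2 fold change was 0.20 (SE 0.16, 95% interval -0.12 to 0.52, adjusted p = 0.370, edgeR, Benjamini-Hochberg). A difference between the changes of TKT and TALDO1 was not tested. As a description only, within libraries TKT gave 4.01 and 4.36 counts per TALDO1 count with arsenite. With water it gave 3.31 and 3.66, without overlap.

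ME1 (ENSG00000065833) encodes the cytosolic malic enzyme, which makes NADPH as it turns malate into pyruvate. Its identifier held 1 and 1 counts with arsenite and 0 and 0 counts with water, which did not pass the filter on low counts. All 4 values lay under a floor of 3 counts a library, equal to 0.109 to 0.111 CPM, so a difference was not detectable at this depth and no fold is given. Whether this row holds all reads of the gene was not checked, since no human annotation was used here. Floors cover counting error only.

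**Figure D2:**
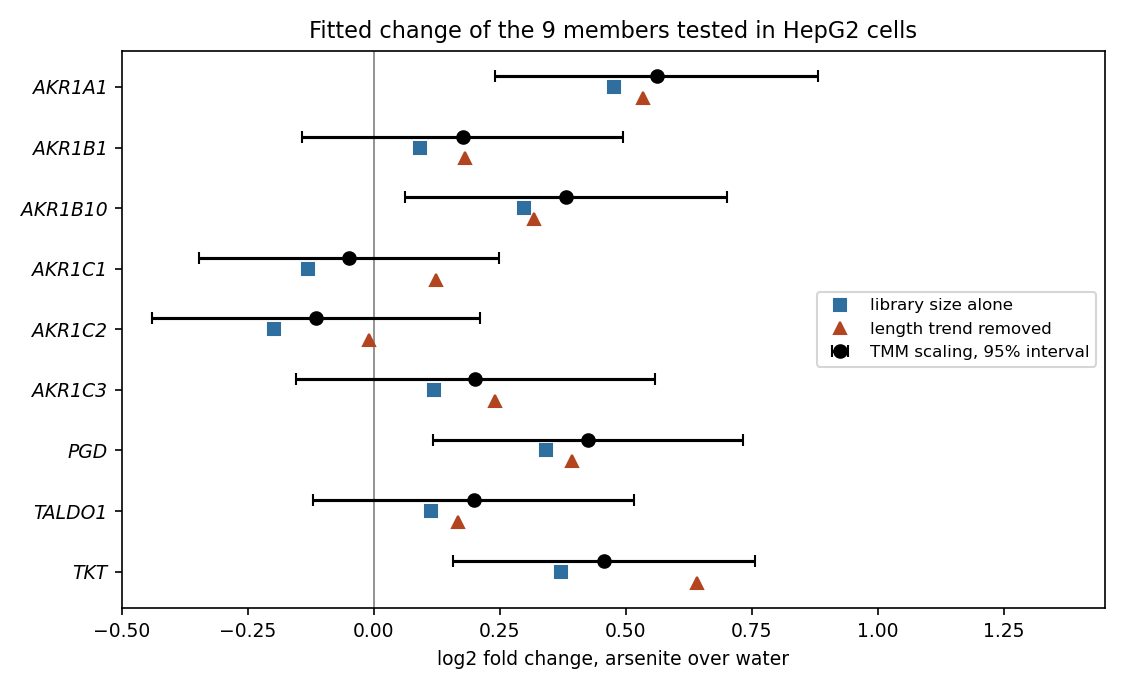
Log2 fold change of arsenite over water (horizontal axis) for the 9 genes tested, as black points with 95% intervals under TMM scaling, squares for library size alone and triangles with each library's length trend removed. The intervals of AKR1A1, AKR1B10, PGD and TKT lie above 0, the others span 0, and AKR1C1 turns from -0.05 to 0.12 with the length trend removed.

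The errors behind these tests came from all genes rather than from each gene's own replicates, because edgeR's fit took each spread from the trend with abundance. Fitted standard errors therefore lay within 0.15 to 0.18 for all 9 genes. Standard errors from each gene's own 2 and 2 libraries, on the log2 CPM scale, were 0.04 for AKR1C2, the lowest, and 0.17 for AKR1A1, the highest. Groups that do not overlap are common in these libraries: both arsenite values exceeded both water values in 25.5% of genes tested and lay below them in 41.2%. Among the 9 genes, 5 had both arsenite values above, 2 had both below and 2 overlapped. These overlaps were read in CPM on library totals, as were the shares of all genes. The fits instead used TMM factors of 0.964 and 0.980 with arsenite and 1.02 and 1.04 with water. With those factors AKR1B1 and TALDO1 would no longer overlap and AKR1C1 would, and the shares of all genes were not recounted.

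**Figure D3:**
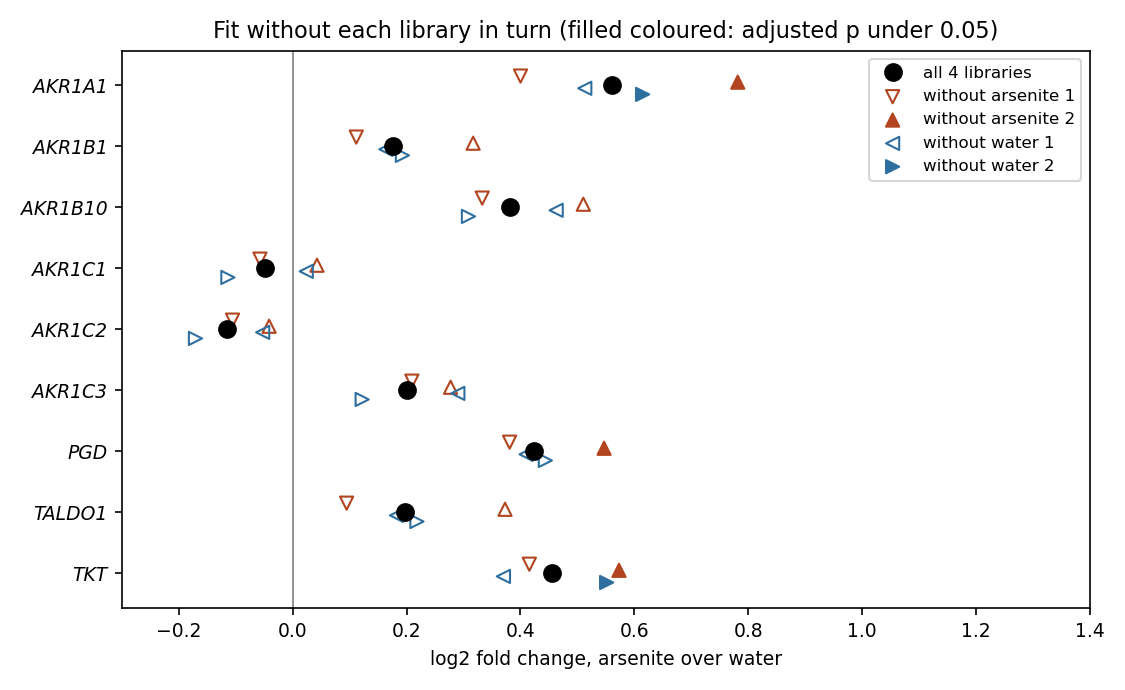
Log2 fold change of arsenite over water (horizontal axis) for the 9 genes with all 4 libraries (black) and without each library in turn, with filled coloured markers where the adjusted p was under 0.05. The fit without arsenite 1 lies lowest for AKR1A1, at 0.40, and the fit without arsenite 2 highest, at 0.78, while AKR1C1 lies between -0.11 and 0.04.

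Scaling moved all members together. With library size alone the median log2 fold change over all genes was -0.10, against -0.02 with TMM scaling. Shares and ratios within a library do not depend on that choice, while sums in CPM do, and 25 such values were computed per library. With 2 against 2 libraries an exact permutation test cannot give a 2-sided p under 0.333, so none of them can pass 0.05 and they are given as descriptions.

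The 6 aldo-keto reductases of the set together took 1502 and 1406 CPM with arsenite and 1466 and 1400 CPM with water. Their total overlapped between the groups, and other aldo-keto reductases were not counted. Shares within the 6 differed without overlap for every member except AKR1B1. AKR1B1 held 12.5% and 12.1% of the counts of the 6 with arsenite and 11.2% and 12.2% with water. Shares of 1 total are tied to each other and are not separate results, and how often such shares overlap among other genes was not computed. None of the 3 AKR1C genes passed the test for a change of its own. The 3 AKR1C genes together held 59.4% and 62.1% of the counts of the 6 with arsenite and 68.3% and 66.4% with water. AKR1A1 held 15.0% and 12.8% with arsenite and 9.49% and 10.9% with water, and AKR1B10 held 13.1% and 12.9% with arsenite and 10.9% and 10.5% with water.

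Among the AKR1C genes only the share of AKR1C1 overlapped. AKR1C1 held 82.6% and 82.2% of their counts with arsenite and 82.6% and 82.5% with water. AKR1C3 held 4.79% and 4.88% with arsenite and 4.11% and 4.02% with water, without overlap, and AKR1C2 held 12.6% and 12.9% with arsenite and 13.3% and 13.5% with water, also without overlap.

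PGD, TALDO1 and TKT summed to 1460 and 1349 CPM with arsenite and 1066 and 1176 CPM with water. TKT and PGD kept close proportions, with 1.72 and 1.73 TKT counts per PGD count with arsenite and 1.60 and 1.77 with water, which overlapped. Against AKR1C1, PGD gave 0.630 and 0.602 counts per AKR1C1 count with arsenite and 0.419 and 0.471 with water. TKT gave 1.08 and 1.04 with arsenite and 0.668 and 0.834 with water. Neither pair of groups overlapped, which is no separate result. It follows from the CPM, where both arsenite libraries lay above both water libraries for PGD and TKT and below them for AKR1C1.

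Levels of different genes were compared per kilobase, as RPKM, which divides CPM on each library's own total by the gene's length in kilobases. The order between genes rests on those lengths, which were not checked against the transcripts present in these cells. Lengths were those behind the authors' deposited RPKM, 1744 bp for AKR1B10, 2966 bp for PGD, 3005 bp for TALDO1, 3121 bp for AKR1A1, 3660 bp for AKR1B1, 4532 bp for AKR1C3, 6703 bp for AKR1C2, 8834 bp for AKR1C1 and 9507 bp for TKT. With arsenite, PGD stood first at 151 ± 7.63 RPKM (SD, n = 2), followed by AKR1B10 at 108 ± 6.09, AKR1C1 at 82.4 ± 1.51 and TKT at 81.1 ± 3.76. AKR1A1 then had 64.9 ± 10.1 RPKM, TALDO1 61.5 ± 6.48 and AKR1B1 49.0 ± 3.42 (SD, n = 2). AKR1C2 had 16.8 ± 0.0115 and AKR1C3 had 9.42 ± 0.0240 RPKM with arsenite (SD, n = 2). Of neighbours in this order, AKR1C1 and TKT overlapped, as did AKR1A1 and TALDO1.

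With water, PGD again stood first at 119 ± 3.65 RPKM (SD, n = 2), followed by AKR1C1 at 90.3 ± 4.82 and AKR1B10 at 88.1 ± 5.41, which overlapped. TKT had 62.7 ± 6.45, TALDO1 56.8 ± 1.80, AKR1A1 46.7 ± 2.98 and AKR1B1 45.9 ± 1.30 RPKM (SD, n = 2), and AKR1A1 and AKR1B1 overlapped. AKR1C2 had 19.3 ± 0.843 and AKR1C3 8.67 ± 0.592 RPKM. By these lengths AKR1C1, first of the 6 reductases by counts, was not separated from AKR1B10 per kilobase with water and lay below it with arsenite.

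**Figure D4:**
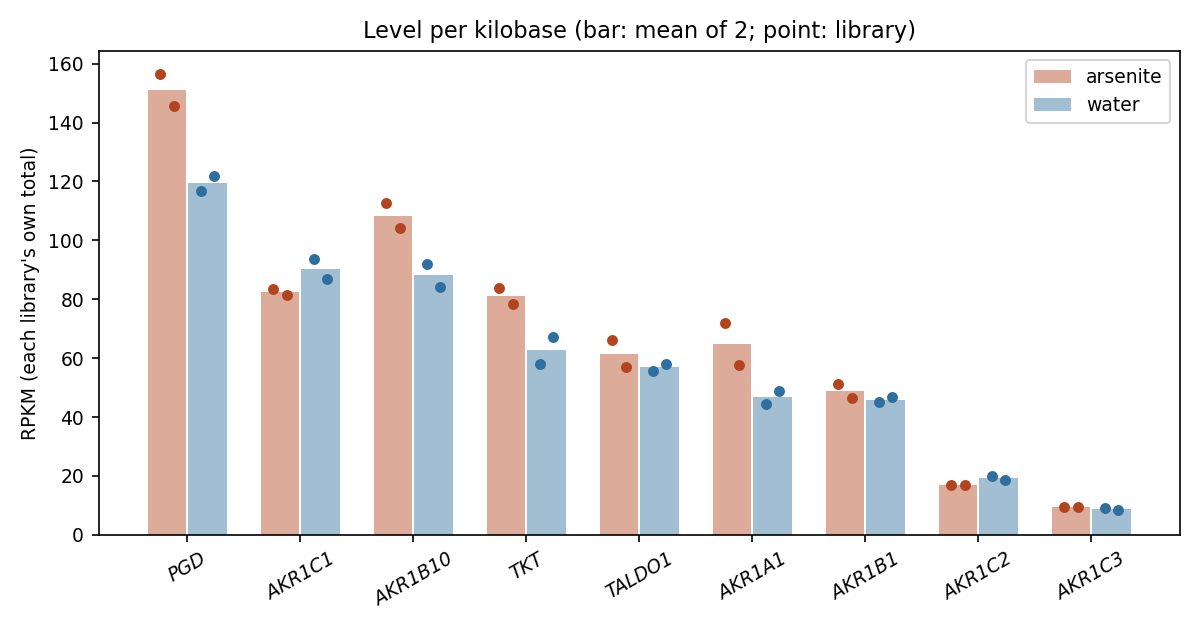
Level per kilobase (vertical axis, RPKM of each library's own total) of the 9 genes with a length, ordered by their level with water, with arsenite bars left of water bars, bars for the mean of 2 and points for libraries. PGD is highest in both groups, at 151 and 119 RPKM, and AKR1C3 lowest, at 9.42 and 8.67 RPKM.

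Removing each library's trend over gene length, a setting chosen after seeing the data, moved some of these results. It used the same lengths, which were not checked against the transcripts present in these cells. TKT, the longest of the 9, had a log2 fold change of 0.64 with each library's length trend removed, and AKR1B10, the shortest, had 0.32. The 3 calls (AKR1A1, PGD and TKT) stood with the trend removed, at log2 fold changes of 0.53, 0.39 and 0.64. In that fit 35.2% of all genes tested were called, 17.4% higher and 17.8% lower.

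**Figure D5:**
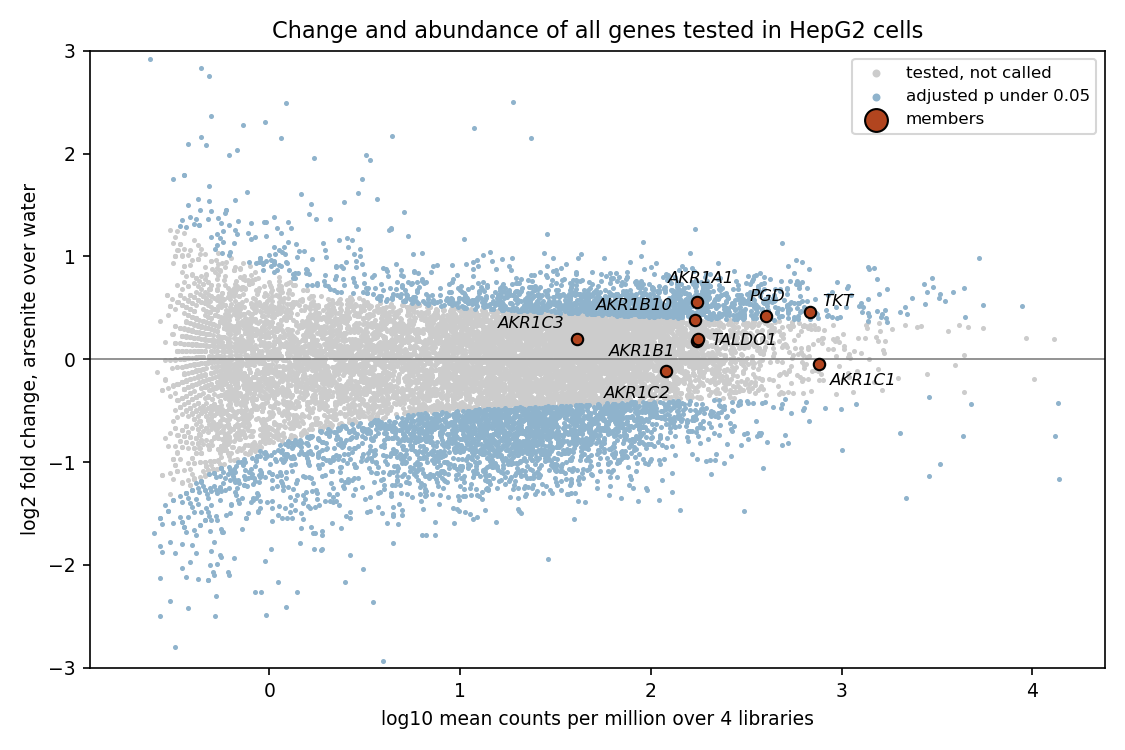
Log2 fold change of arsenite over water (vertical axis) against log10 mean CPM over the 4 HepG2 libraries (horizontal axis) for all genes tested, blue where called, with the 9 members in red; 29 genes lie outside the axis limit of 3. All members shown except AKR1C3 lie in the most abundant 20% of genes.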

How the data were processed

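Per the labels' protocols, total RNA went into TruSeq libraries. The build GRCh38 and, without their roles, featureCounts 1.4.6-p4, STAR 2.4.1d and bcl2fastq 1.8.4 stand in the submitters' processing notes. The authors deposited raw counts per gene and RPKM, per the file headers. The divisor of the deposited RPKM ran through 14 values in turn down the rows, of which 8 equalled column totals. It served only to recover gene lengths, whole within 0.2 bp in all 15293 rows checked. In the NIH3T3 columns, rows beyond the first 47729 repeated earlier ones.

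Groups came from the labels, and replicate numbers follow the accessions. The 4 HepG2 libraries were fitted in edgeR 4.0.16 (R 4.3.3) with its default filter, TMM scaling and the quasi-likelihood test, 2-sided, with Benjamini-Hochberg adjustment over all genes. Standard errors are the log2 fold change over the root of F. The alternatives were limma-voom (limma 3.58.1), DESeq2 1.42.0, further scalings, filters and thresholds, and fits without each library, where the remaining sample of a group borrows the spread of the other group. The fits were tested on simulated counts. All 10 members are named, with symbols as given with the set. The 5 pathway lists and 2 marker lists fixed by symbol were not run, since 0 identifiers matched the mouse name tables used. The members and lists were chosen with earlier results of these data known.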

Additional observations from a re-analysis of the deposited data

How the results depend on the processing

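Of 15 alternatives, the removal of length trends was chosen after seeing the data. A test against a fold of 1.2 called 2498 of all genes (715 higher, 1783 lower) and 0 of the 9 members. Leaving out 1 library in turn gave 844 to 4503 called genes (209 to 1697 higher, 635 to 2806 lower) and 0 to 3 called members, all of them higher; 844 and 1378 genes came without arsenite 1 and water 1. In each of these fits fewer samples entered. Calls of AKR1A1 and TKT held in 12 of 15 alternatives and that of PGD in 10, and AKR1B10 was called in 5, of which 1 had the looser adjusted p of 0.10. AKR1B1, AKR1C1, AKR1C2, AKR1C3 and TALDO1 were called in none of the 15. AKR1C1 changed sign in 3, and the other 8 tested members kept theirs in all. Alternatives for the pathway lists were not run for want of symbols. No paired analysis was possible because the labels carry no replicate numbers. At 0 or 1 counts a library, ME1 was too low to compare.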
